A study of Mus musculus with 96 samples.

Results

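The D-type and E-type cyclins and their kinases were followed here by 6 genes, which are the cyclin genes Ccnd1, Ccnd2, Ccnd3 and Ccne1 and the cyclin-dependent kinase genes Cdk4 and Cdk6. They were chosen by name, as rows of the raw count table, and are 6 of its 36205 gene rows. RNA was measured in single E14 cells, a line of mouse embryonic stem cells that the labels give as wild-type on a C57BL/6 background, in the RNA arm of a protocol that parts mRNA and DNA of the same cell. All cells analysed came from serum/LIF medium, in which serum and leukaemia inhibitory factor hold the cells in the pluripotent state. Counts were analysed for 61 of the 76 serum/LIF wells listed, while the 16 wells of cells grown in 2i and the 4 wells without a cell were not analysed here. The labels name no separate cultures and no clones, so the 61 cells are 1 sample of 1 condition, and every relation between cells is given as a description, without a test.

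D-type cyclins bind Cdk4 or Cdk6 in G1 phase, and these complexes start the phosphorylation of the retinoblastoma protein and its relatives, which frees E2F transcription factors. E2F factors switch on genes of DNA replication as well as Ccne1, whose product binds Cdk2 and carries the cell into S phase. Mouse embryonic stem cells are known for a short G1 phase and for high activity of cyclin E with Cdk2, and D-type cyclins link the cycle to growth signals.

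Total counts of genes per cell lay between 2417702 and 6787261 (median 4244480), and 5317 to 10032 genes had a count (median 8404). Mitochondrial genes took 0.0543% to 4.45% of the counts. Pou5f1, which defines pluripotent cells, had counts in all 61 cells, and all 7 general pluripotency genes checked had at least 10 counts in at least 10 cells. None of the 8 fibroblast markers passed that limit. S100a4 was the most widely detected of them, in 8 cells, and the summed fibroblast level was 0 to 223 CPM (counts scaled to the same library total in every cell). Among other lineage markers, Elf5 of trophectoderm and Sox1 of neurectoderm had no count in any cell, which at a limit of 3 counts means a level below 0.447 to 1.24 CPM, depending on the cell. Dab2 of primitive endoderm had counts in 20 cells, Tfap2c of trophectoderm in 23, Wnt3 of mesendoderm in 44, Nes of neurectoderm in 47 and Dnmt3b of the formative and primed state in 58. Each of these 5 was the most widely detected of its list. The other markers had counts in 1 to 3 cells for primitive endoderm, 0 to 20 for trophectoderm and 1 to 40 for mesendoderm. For neurectoderm the range was 0 to 19 cells, and for the formative and primed state 6 to 50.

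Levels are given as CPM, with library sizes scaled by the trimmed mean of M-values (TMM). Where 2 genes are compared, levels are given per kb of exon. All 6 genes passed the filter of at least 10 counts in at least 10 cells, which 30% of all gene rows passed. The exact intervals given are for the share of cells with a count. They treat the cells as independent draws and do not cover the error of counting. The labels name no molecular identifiers, so the limits given cover only the error of counting.

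Ccnd1, which encodes cyclin D1 and is known as a target of growth factor signals, was the most widely detected D-type cyclin, with counts in 60 of 61 cells (98.4%, exact 95% interval 91.2% to 100%). The gene lies on GRCm38 chromosome 7, from 144929931 to 144939925 on the minus strand. Its level was 0 CPM in the lowest cell, 210 CPM in the median cell and 759 CPM in the highest, in well B06, and it averaged 247 ± 198 CPM (SD, n = 61 cells). The middle of the distribution was broad, with quartiles of 82.9 and 361 CPM. Only 4 cells fell below 10 counts, in wells F01, F02, F07 and H03. The cell in H03 had no Ccnd1 count but 1484 counts of Ccnd3 and 496 of Ccnd2, and the cell in F07 had 5 counts of Ccnd1 beside 2914 of Ccnd2. The cell in F01 had 4 counts of Ccnd1 and none of Ccnd2 or Ccnd3, although its total of 5054247 counts was above the median. The same F01 cell held 317 counts of Ccne1, 5608 of Cdk4 and 538 of Cdk6.

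Ccnd2, which encodes cyclin D2, was split between cells with almost no counts and cells with many. It is found on GRCm38 chromosome 6, from 127125162 to 127152193 on the minus strand. Counts were present in 39 of 61 cells (63.9%, exact 95% interval 50.6% to 75.8%), but 6 of these cells had 4 counts or fewer. No cell lay between 4 and 54 counts, a step of 13.5-fold, so that 22 cells stood at 0, 6 just above 0 and 33 above the step. In those 33 cells the level ran from 12.1 to 2312 CPM with a median of 111 CPM. Over all 61 cells it averaged 149 ± 344 CPM (SD), and the median was 24.9 CPM. One cell, in well G09, had 9348 counts or 2312 CPM, and by itself held 25.5% of the summed Ccnd2 level. The next cells were F07 at 1008 CPM and E03 at 652 CPM. Without G09 the mean was 113 ± 199 CPM. With each cell thinned to 2417702 counts, Ccnd2 was again detected in 39 cells. Since 33 of these held at least 54 counts before thinning, this number could hardly change. Ccnd3 likewise had 15 cells at 0 and none with 1 to 9 counts. Whether cells at 0 held transcripts that were not captured was not tested. Ccnd2 had counts in 19 of 33 cells from plate rows A to D and in 20 of 28 cells from rows E to H, with medians of 0.926 and 82.9 CPM.

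Ccnd3, which encodes cyclin D3, was detected in 46 of 61 cells (75.4%, exact 95% interval 62.7% to 85.5%). It lies on GRCm38 chromosome 17, from 47505051 to 47599691 on the plus strand. All 46 cells had at least 10 counts, with 2 of them, A05 and E10, at exactly 10 (1.49 and 3.11 CPM). The level was 34.6 CPM in the median cell and reached 421 CPM in well C02, 330 CPM in B09 and 243 CPM in H03, around a mean of 56.7 ± 79.8 CPM (SD, n = 61). The 5 highest cells held 38.5% of the summed level. Of these top cells, H03 and B09 were among the lowest for Ccnd1, with 0 and 3.02 CPM, while C02 had 82.9 CPM.

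**Figure D1:**
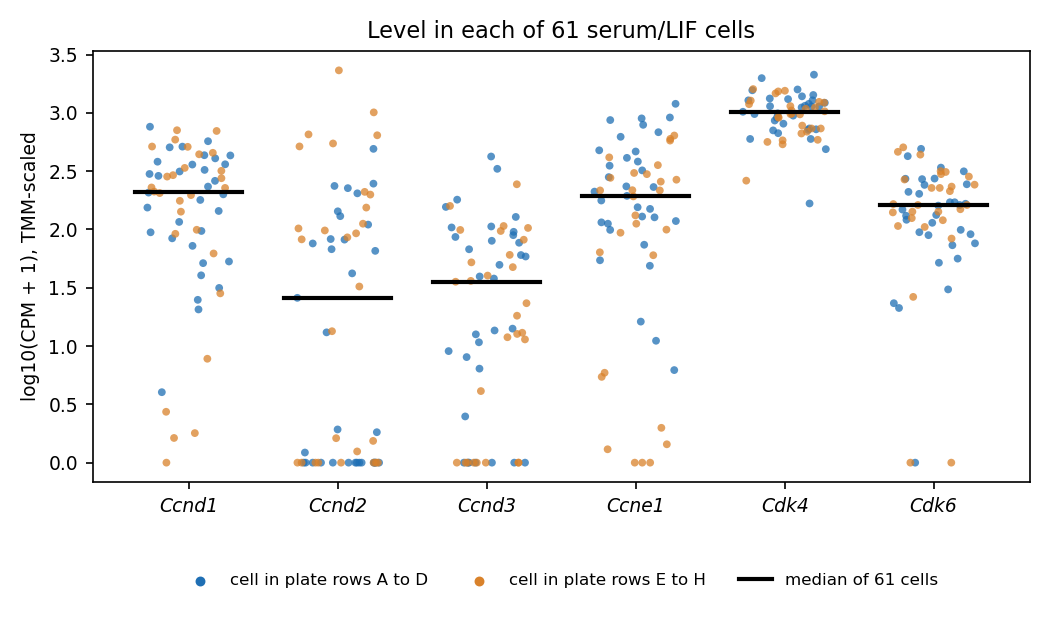
Level of each of the 6 genes in each of the 61 serum/LIF cells, as log10(CPM + 1) on the vertical axis, with 1 point per cell, the median as a bar and points coloured by plate rows A to D or E to H. Cdk4 forms a single narrow cloud, whereas Ccnd2 divides into cells at or near 0 and 33 cells between 12.1 and 2312 CPM.

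Most cells held more than 1 D-type cyclin, since 28 cells had at least 10 counts of 2 of them and 24 cells of all 3. By gene, at least 10 counts of all 3 were present in 24 cells, of Ccnd1 with Ccnd3 in 20, of Ccnd1 with Ccnd2 in 6 and of Ccnd1 alone in 7. Ccnd2 with Ccnd3 was found in 2 cells and Ccnd2 alone in 1. F01 was the 1 cell in which none reached 10 counts. Per kb, Ccnd1 was the highest D-type cyclin in 48 cells, Ccnd2 in 8 and Ccnd3 in 5. Ccnd1 made up 82.8% of the summed D-type level in the median cell (quartiles 61.3% and 92.7%), against 3.54% for Ccnd2 and 4.06% for Ccnd3. Individual cells departed widely from this mixture: Ccnd2 was 99.7% of the sum in F07, and Ccnd3 was 89.3% of it in E01 and 76.2% in H03. The sum ran from 0.168 CPM per kb in F01 to 381 CPM per kb in G09, with a median of 68.2, and its coefficient of variation was 81.9%.

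**Figure D2:**
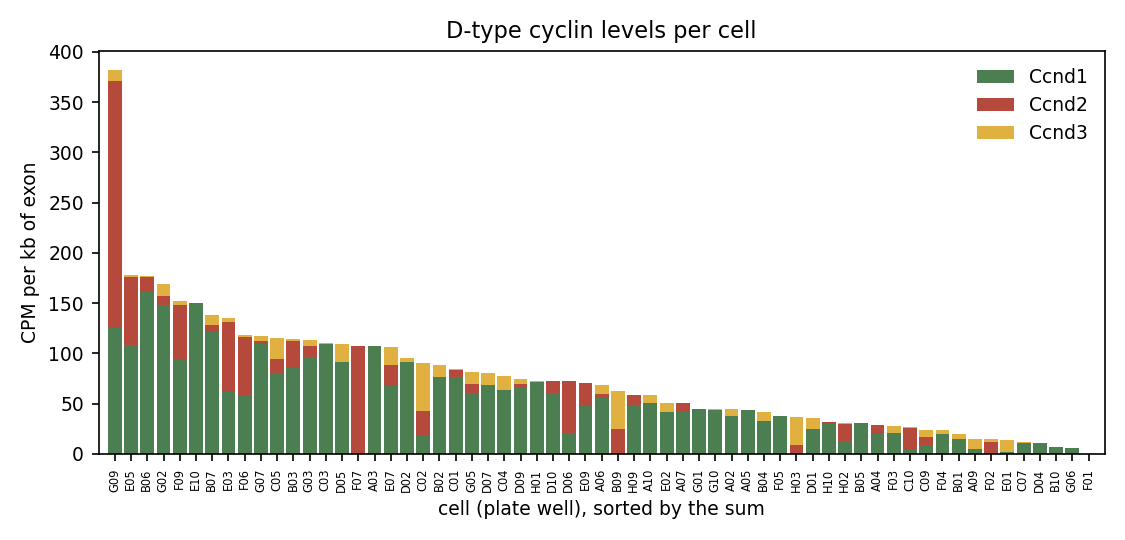
Stacked level of Ccnd1, Ccnd2 and Ccnd3 in each of the 61 cells, in CPM per kb of exon, with 1 bar per cell. Ccnd1 is the largest of the 3 in 48 cells, and the highest bar, well G09 at 381 CPM per kb, is mostly Ccnd2.

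Ccne1, which encodes cyclin E1, had counts in 58 of 61 cells (95.1%, exact 95% interval 86.3% to 99%). The gene spans GRCm38 chromosome 7 from 38097984 to 38107534 on the minus strand. The lowest cell was at 0, the median at 193 CPM and the highest, in well B09, at 1194 CPM. The mean was 267 ± 270 CPM (SD, n = 61 cells), so the spread between cells was as large as the mean. A step separated 50 cells with at least 220 counts from 8 cells with 1 to 48 counts and 3 cells with none. The 6 cells below 10 counts were E01, F05, F06, G06, G09 and G10, all in plate rows E to H. The cell in G09, which had the highest Ccnd2 level, had 4 counts of Ccne1, whereas H03, without Ccnd1, had 3898. The 250 bases before the RefSeq start of Ccne1 (GRCm38.p6, chr7:38107491-38107740, minus strand, written 5′ to 3′ along the gene) are shown because Ccne1 is the member whose level moved with the S-phase genes described further on. Capitals mark GGGCGG, the letters of the GC box, on either strand.
Ccne1: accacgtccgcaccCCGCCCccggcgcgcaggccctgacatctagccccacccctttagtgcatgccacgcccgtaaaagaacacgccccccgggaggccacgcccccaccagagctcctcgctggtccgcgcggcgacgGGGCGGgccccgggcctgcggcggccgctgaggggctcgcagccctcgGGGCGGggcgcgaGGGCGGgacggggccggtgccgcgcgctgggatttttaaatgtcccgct
The GC box letters occur 4 times in this stretch. At least 1 such match was found in 32.7% of 32851 RefSeq windows of the same length, and 3 or more in 8.47%. None of the E2F letters searched (TTTCGCGC, TTTGGCGC, TTTCCCGC and TTTGCCGC, both strands) was found, and 1.86% of the windows held at least 1 of them. These matches describe letters only, and no binding was measured.

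Cdk4, the main G1 kinase partner of D-type cyclins in many cell types, was the only one of the 6 genes with counts in all 61 cells, as were 4.08% of all gene rows. It lies on GRCm38 chromosome 10, from 127063534 to 127067920 on the plus strand. The level ran from 166 CPM in well B10 through a median of 1020 CPM to 2123 CPM in D04, and the mean was 1025 ± 379 CPM (SD). The second lowest cell was at 261 CPM. Counts per cell were 872 to 12385. Quartiles of 733 and 1241 CPM differ by 1.69-fold, a narrower range than for the other 5 genes. B10 was also the cell with the fewest genes detected, 5317.

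Cdk6, the second kinase that D-type cyclins bind, had counts in 58 cells (95.1%, exact 95% interval 86.3% to 99%), each with at least 10. It spans GRCm38 chromosome 5 from 3341485 to 3531008 on the plus strand. The 3 cells at 0 were in wells B05, E01 and E05, the median was 161 CPM, and the highest cell, G02, had 505 CPM. The mean was 181 ± 122 CPM (SD, n = 61), with quartiles of 98.2 and 243 CPM, a 2.47-fold range. The cell in E05 lacked Cdk6 counts but had 5798 counts of Cdk4 and 2406 of Ccnd2.

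The RefSeq windows of the kinase genes are set side by side (GRCm38.p6, 250 bases before the start, plus strand, 5′ to 3′). They are chr10:127063285-127063534 for Cdk4 and chr5:3343643-3343892 for Cdk6. Capitals mark CACGTG, the E-box letters that Myc family proteins are known to bind, which read the same on both strands.
Cdk4: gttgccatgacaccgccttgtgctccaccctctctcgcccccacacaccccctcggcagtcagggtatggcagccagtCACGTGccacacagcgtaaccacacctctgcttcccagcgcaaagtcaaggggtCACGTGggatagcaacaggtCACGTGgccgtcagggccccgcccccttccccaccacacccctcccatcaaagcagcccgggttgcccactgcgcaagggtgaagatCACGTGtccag
Cdk6: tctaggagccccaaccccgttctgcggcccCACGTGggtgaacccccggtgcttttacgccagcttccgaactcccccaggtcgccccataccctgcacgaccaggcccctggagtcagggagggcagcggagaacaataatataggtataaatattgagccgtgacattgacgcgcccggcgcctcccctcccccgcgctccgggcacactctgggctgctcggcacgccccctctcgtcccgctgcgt
The Cdk4 window holds 4 matches and the Cdk6 window 1. A match was present in 6.02% of the 32851 windows, and 3 or more in 20 of them (0.0609%). Of the other letters searched, GGGCGG had 1 match in the Cdk4 window and none in that of Cdk6. TATAAA had 1 match in the Cdk6 window and none in that of Cdk4, and the E2F letters were in neither. These matches describe letters only, no binding was measured, and a part of them in the levels was not tested. Cdk4 is a known Myc target. Across cells, the rank correlation of Cdk4 with Myc was 0.137 and with Mycn −0.0497, where the quartiles over all genes were −0.0777 and 0.106. Neither of the RefSeq starts of Ccnd3 had a CACGTG match or an E2F match.

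On the per kb scale, Cdk4 had the highest median level of the 6 genes, 314 CPM per kb (quartiles 226 and 382). It was followed by Ccne1 at 72.6 (27.4 and 133), Ccnd1 at 44.5 (17.6 and 76.7), Cdk6 at 11.5 (7.02 and 17.3), Ccnd3 at 3.94 (0.17 and 9.71) and Ccnd2 at 2.64 (0 and 13.8). Cdk4 exceeded Ccne1 in 56 of 61 cells, the sum of the 3 D-type cyclins in 60 and Cdk6 in all 61. Ccne1 and Ccnd1 overlapped widely, with Ccne1 higher in 34 cells and Ccnd1 in 27. The same held for Ccne1 against the summed D-type cyclins, higher in 31 cells and lower in 30. Ccnd1 exceeded Cdk6 in 49 cells. Cdk6 was higher than Ccnd3 in 46 cells and lower in 14, with overlapping quartiles. Ccnd3 exceeded Ccnd2 in 31 cells and was the lower in 23, so these neighbours in the order did not separate. By the mean in place of the median, Ccnd2 at 15.8 CPM per kb passed Cdk6 at 13.0 and Ccnd3 at 6.46. Without the cell in G09 the mean of Ccnd2 was 12 CPM per kb, below the 13.0 of Cdk6. These levels divide by all exon bases of a gene, 8775 for Ccnd3, whose longest transcript has 3858. With longest transcripts as lengths, the medians were 13.9 for Cdk6 and 8.96 for Ccnd3, and Cdk6 was higher in 39 cells. The order of the medians of the 6 genes stayed the same.

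Ccne2, the other E-type cyclin, is no member but belongs beside Ccne1. It had counts in 55 cells, a median of 6.86 CPM per kb (quartiles 1.53 and 36.6) and was lower than Ccne1 in 52 cells.

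Variability between cells was measured as the squared coefficient of variation (CV2) divided by the trend over all genes at that mean level, and a ratio of at least 2 was called variable. Of the 6 genes, 3 were called, Ccnd2, Ccne1 and Ccnd3, against 26% of the 10868 genes past the filter. Ccnd2 had a ratio of 11.7, rank 10 of all genes, and its CV2 of 5.35 compares with a median of 0.701 among the 1387 genes within 1.5-fold of its mean. Leaving out the cell in G09 brought the ratio of Ccnd2 to 5.84, still above 2. Ccne1 had a ratio of 3.02 and stood at the 92.3rd percentile of all genes. Ccnd3 had 2.25, which was 1.71 without the cell in C02 and 1.23 when a running median of CV2 replaced the fitted trend, so its call depended on both. Among the 2244 genes nearest to it in mean, Ccnd3 stood only at the 70.3rd percentile. Ccnd1 at 1.83 and Cdk6 at 1.10 lay near the middle of all genes (quartiles 0.826 and 2.03), and Cdk4 at 0.588 lay at the 17.1st percentile. The coefficients of variation were 231% for Ccnd2, 141% for Ccnd3, 101% for Ccne1, 80.2% for Ccnd1, 67.2% for Cdk6 and 36.9% for Cdk4.

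**Figure D3:**
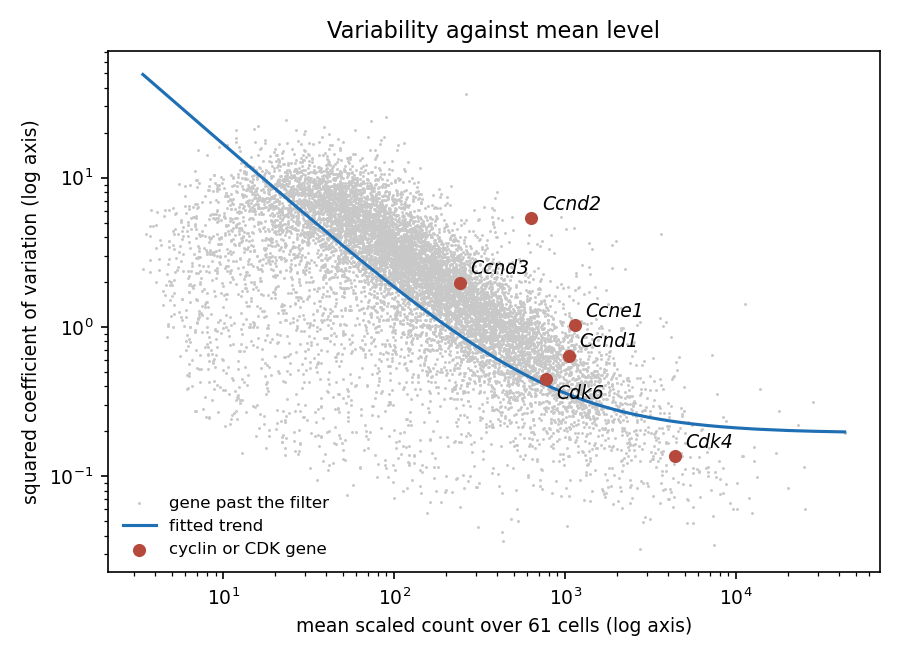
CV2 against the mean count over cells, scaled for library size, for the 10868 genes past the filter. Both axes are on a log scale, with the fitted trend as a line and the 6 genes named. Ccnd2, at 11.7 times the trend, stands far above genes of like mean, while Cdk4 and Cdk6 lie near or below the line.

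Cell cycle position was summarised by 2 scores, the mean standardised log2(CPM + 1) of 41 S-phase genes and of 54 G2/M genes, none of them a member. Over all cells, Ccne1 was the 1 member with a Spearman rho of at least 0.3 in size with the S-phase score, at 0.435 over 61 cells, while 4.12% of all genes reached that size and 0.386% had a rho as large as that of Ccne1. Pearson's r was 0.418, and 0.371 without the 2 cells farthest from the median score, one of which is G09. Within plate rows A to D the rho of Ccne1 was 0.298, and within rows E to H 0.579. Ccne2 had a rho of 0.346 over all cells, 0.16 in rows A to D and 0.555 in rows E to H. Cdk4 had 0.205 over all cells, but 0.467 in rows A to D, above Ccne1 there, and −0.101 in rows E to H. The D-type cyclins and Cdk6 lay near 0, with −0.0449 for Ccnd1, −0.0342 for Ccnd2, 0.0271 for Ccnd3 and 0.0106 for Cdk6. The labels name no separate cultures for these cells, and their libraries differ in depth. Ccne1 itself had a rho of 0.127 with total counts (Pearson's r 0.192) and of 0.0239 with the number of genes detected.

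**Figure D4:**
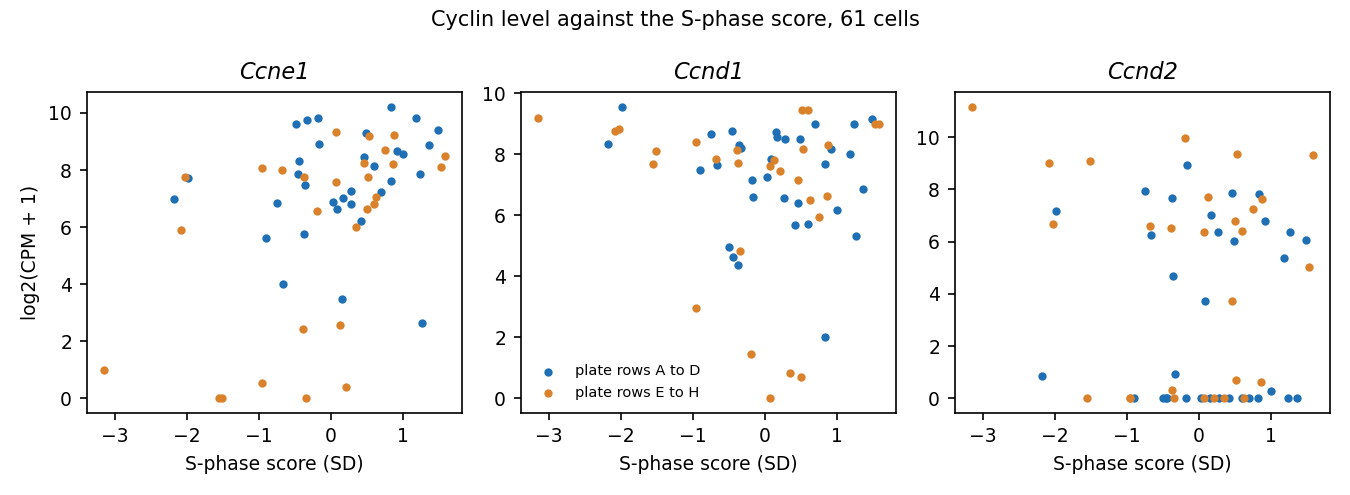
Level of Ccne1, Ccnd1 and Ccnd2, as log2(CPM + 1), against the S-phase score in SD units, with 1 point per cell coloured by plate rows. The Ccne1 points climb with the score (rho 0.435), and those of Ccnd1 (−0.0449) and Ccnd2 (−0.0342) do not.

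The individual S-phase genes gave the same picture for Ccne1. Of 41 genes, 38 had a rho above 0 with it (92.7%, against 49.6% of all genes), and the median was 0.199, against −0.00138 over all genes. In 8 of the 41 the rho was at least 0.3. These were the exonuclease gene Exo1 (0.54), the checkpoint adaptor Clspn (0.468), the replicative helicase genes Mcm5 (0.437) and Mcm4 (0.372), Rrm2 of ribonucleotide reductase (0.385), the chromatin remodeller Hells (0.316), Gins2 of the replication fork (0.312) and the uracil glycosylase Ung (0.302). The 3 below 0 were Pold3, Rfc2 and Rad51ap1, at −0.167, −0.109 and −0.105. With the 54 G2/M genes, in contrast, Ccne1 had a median rho of 0.00398, and none reached 0.3. For Ccnd1 the G2/M genes leaned the other way, with 10 of 54 above 0 and a median of −0.0844, against 0.0366 over all genes. Ccnd2 had 13 of 54 above 0, with a median of −0.0896 against 0.0154 over all genes, and Cdk4 had 16 of 54, with −0.0781 against 0.0146. Genes of 1 list vary together, so these counts are not independent observations. None of the 6 members reached 0.3 with the G2/M score itself, as 4.03% of all genes did. The largest was −0.143, for Ccnd2.

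Among the 15 pairs of members, 1 had a rho of at least 0.3 in size. Ccnd1 and Cdk6, a cyclin and a kinase it binds, had a rho of 0.308 over 61 cells, which was 0.319 in plate rows A to D, 0.282 in rows E to H and 0.288 once the share of genes detected had been regressed out. Pearson's r was 0.223. At least 0.3 in size was reached with Ccnd1 by 4.02% of all genes, and a rho as large as that of Cdk6 by 3.52%. Ccnd1 and Cdk4 had 0.057. Ccnd2 and Cdk4 had 0.234 over all cells, 0.138 in rows A to D and 0.434 in rows E to H. Over all cells the D-type cyclins were only weakly related to each other, at 0.156 for Ccnd1 with Ccnd2, 0.15 for Ccnd1 with Ccnd3 and 0.0838 for Ccnd2 with Ccnd3. By plate rows, Ccnd1 with Ccnd2 had −0.0466 in A to D and 0.334 in E to H. Thus no pair of D-type cyclins showed a high level of one against a low level of the other over the cells as a whole, although H03 and F07 did so as single cells. Ccne1 had a rho between 0.024 and 0.123 with the 3 D-type cyclins, and its rho with Ccne2 was 0.327.

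**Figure D5:**
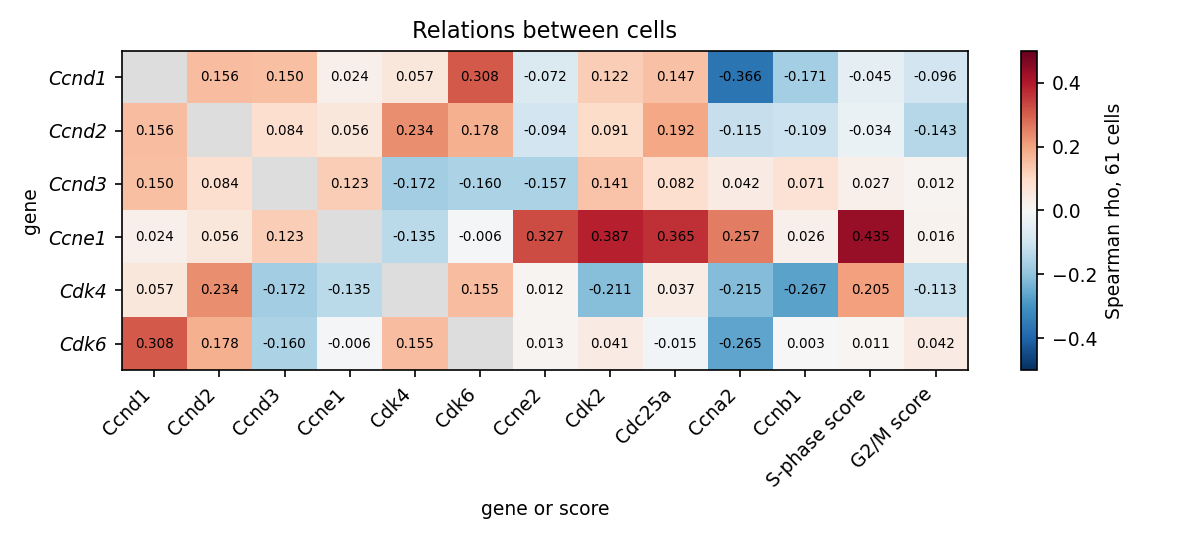
Spearman rho over 61 cells between each of the 6 genes (rows) and the members, other cell cycle genes and both scores (columns), with colour and printed value. The row of Ccne1 stands out with Ccne2, Cdk2, Cdc25a and the S-phase score at 0.327 to 0.435; the 5 columns of other genes were picked after their values were seen.

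Of the 51 other genes of the pathway followed here, 43 passed the filter, and 12 of these had a CV2 ratio of at least 2, a share near the 26% of all genes past the filter. Ccne1 had the most relations with them, 5 with a rho of at least 0.3 in size, where 3.8% of all genes had one. Its positive relations were with its kinase partner Cdk2 (0.387), the Cdk2-activating phosphatase Cdc25a (0.365) and Ccne2. The negative ones were with E2f3 (−0.357) and with Rb1, which encodes the retinoblastoma protein (−0.306). Ccnd1 had 2 such relations, with Gsk3b, a kinase that marks cyclin D1 for breakdown (0.344), and with Ccna2, the S and G2 phase cyclin (−0.366). That is 2 of 43, beside 4.02% of all genes, a share near the background. Ccnd2 had 1, with Cdkn1b (0.316), but Cdkn1b had a median of only 0.553 CPM, and at that level counts are few. The share of all genes with such a rho was 2.91% for Ccnd2. Cdk4 had 1, with Skp2 (0.308), beside 2.36% of all genes, and Cdk6 had 1, with Cdc25c (−0.382), beside 4.1%. Ccnd3 had none, beside 2.09%.

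Of the 8 kinases and activators of the wider cycle, 7 passed the filter, and Cdc25b, with counts in 9 cells, did not. Cdk7, the kinase that activates other CDKs, had a median of 95.4 CPM per kb, the mitotic kinase Cdk1 had 54.4, and Ccnh, the cyclin of Cdk7, had 43.1. Cdk1, Ccnh and the phosphatase gene Cdc25c were variable, with CV2 ratios of 2.70, 2.18 and 2.24. Cdk2, named after its values were seen, had 10.5 CPM per kb and counts in 58 cells. Of the later cyclins, Ccnb2 stood at 108, Ccnb1 at 83.3 and Ccna2 at 50.3 CPM per kb, and Ccnb1 was variable, at a ratio of 2.60.

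Inhibitors of the D-type kinases were scarce. Of the INK4 genes, whose products bind Cdk4 and Cdk6, Cdkn2a had counts in 9 cells, Cdkn2b in 3, Cdkn2c in 1 and Cdkn2d in 16, and Cdkn2d was the one that passed the filter. The Cip/Kip inhibitors were more frequent. Cdkn1a, a known p53 target, had counts in 51 cells with a median of 106 CPM and a ratio of 3.23. Cdkn1c, an imprinted gene, had counts in 46 cells with a median of 22.6 CPM and a ratio of 3.38, and its highest cell was G09 at 574 CPM. Cdkn1b had counts in 38 cells. Among the pocket proteins, Rb1 was found in 45 cells at a median of 13.1 CPM, with its highest level, 277 CPM, also in G09, and Rbl1 in 30 cells.

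Of the 10 E2F and DP genes, 9 passed the filter. Tfdp1, the dimer partner of E2F proteins, had the highest median at 23.8 CPM per kb, followed by E2f5 at 22.9 and E2f4 at 15.5, and E2f6 was variable at a ratio of 2.09. In the turnover list, 11 of 12 genes passed. Cks1b, which helps the ligase SCF recognise Cdkn1b protein, had 696 CPM per kb, Skp1a had 359 and Cul1 had 77.1, the last 2 being core parts of SCF. The ligase adaptors Fbxw7, which recognises cyclin E, and Ambra1, which recognises D-type cyclins, were variable at ratios of 2.77 and 3.42. Ambra1 had counts in 28 cells. All 6 upstream transcription factor genes passed. Ctnnb1 stood at 69.3, Mycn at 30.6 and Myc at 3.48 CPM per kb, and Mycn (2.96), Jun (2.23) and Stat3 (2.02) were variable.

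The genes most like each member were taken as the 5 with the highest rho and the 3 with the lowest over 61 cells, out of 10867. For Ccnd1 the highest was LTO1, at 0.624, with 0.472 in plate rows A to D and 0.738 in rows E to H. LTO1 lies on the opposite strand and shares 1100 of the 4709 exon bases of Ccnd1, and since the use of strand in counting is not given in the sources used here, reads of these genes cannot be told apart. Next came Arhgef26 (0.572), Commd8 (0.53), Prom1 (0.522) and Tmed4 (0.52). The lowest were Baz2a (−0.534), Gm4617 (−0.441) and Gm9800 (−0.441). For Ccne1, the S-phase genes Exo1 and Clspn named above led, before Gm4879 (0.457), the ribosome biogenesis gene Wdr12 (0.457) and the ribosomal protein gene Rpl38 (0.456). At the low end stood Ctsd, the lysosomal protease cathepsin D (−0.575), Tmem123 (−0.522) and the growth hormone receptor Ghr (−0.473). For Ctsd the rho was −0.493 in rows A to D and −0.646 in rows E to H.

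For Ccnd2 the highest were Ogfrl1 (0.489), Rnf41 (0.474), Tada3 (0.459), Sall3 (0.456) and Alkbh5 (0.442), and the lowest Mpc1-ps (−0.459), Stard3nl (−0.457) and Mettl5 (−0.445). For Ccnd3 they were Rnf19b (0.52), Cox7a1 (0.485), Mrpl10 (0.438), Gtf2h4 (0.436) and Cryz (0.432), with Psip1 (−0.401), Cstf3 (−0.398) and Utp18 (−0.395) lowest. For Cdk4 they were Mif (0.449), Pgam1-ps2 (0.445), Ints1 (0.443), Rps6ka5 (0.439) and Dhx30 (0.432), with Tomt (−0.51), Anapc15 (−0.494) and Anapc15-ps (−0.458) lowest. Cdk6 had the closest neighbour of all 6 genes, a gene row without a symbol in the tables used (ENSMUSG00000091644), at 0.74, with 0.793 in rows A to D and 0.676 in rows E to H. It was followed by Gm26794 (0.563), Gon7 (0.549) and Bst2 (0.506), and the lowest were Nanos1 (−0.499), Nr5a2 (−0.483) and Slc29a1 (−0.483). Each list holds the extremes of 10867 values.

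Other members share exon bases with neighbours as well, 641 of 3249 for Cdk4 with Tspan31 and 361 of 8775 for Ccnd3 with Bysl. Their rho values were −0.136 and 0.141. The pseudogenes Ccnd3-ps and Gm7158, the latter a copy of Cdk4, had no count in any cell.

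The relation to pluripotency was read from a score over the 14 measured genes of a naive pluripotency list of 17. The score fell apart at its largest gap into 52 cells below and 9 above, and no value over all cells is given. Among the 52 cells Ccne1 had a rho of 0.35 (Pearson's r 0.301, and 0.306 without the 2 farthest cells), and 6.94% of all genes reached 0.3 in size there. Cdk4 had a rho of −0.241, Ccnd1 −0.102, and Ccnd2, Ccnd3 and Cdk6 were within 0.05 of 0. Pearson's r was −0.336 for Ccnd1, −0.323 for Cdk4 and −0.215 for Ccnd3. Without the 2 farthest cells it was −0.119, −0.246 and −0.0465. For Ccnd2 and Cdk6 Pearson's r was −0.0363 and 0.092. Among the 9 cells Ccnd1 had a rho of 0.833, with a Pearson's r of 0.73, or 0.59 without the 2 farthest, and 0.718% of all genes had a rho as large. The other members had −0.41 (Ccnd3), −0.261 (Ccnd2), −0.117 (Cdk4), −0.0333 (Ccne1) and 0.00837 (Cdk6) in these 9 cells. Without the 2 farthest cells, Pearson's r of Ccne1 went from 0.253 to 0.819, above that of Ccnd1. It went from 0.17 to 0.484 for Cdk6, from −0.28 to 0.301 for Ccnd2, from −0.047 to 0.129 for Cdk4 and from −0.393 to −0.518 for Ccnd3. Values in so few cells thus depended on which cells entered. The gap of 0.392 SD was little larger than the next, 0.35, so where the cells are parted is uncertain.

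The cell in G09, singled out after its values were seen, joined several extremes. It had the highest Ccnd2 level and the highest D-type sum, 4 counts of Ccne1, and the lowest S-phase score, −3.16, with the next cell at −2.18. Its G2/M score of −2.71 was the second lowest. Summed over the lists, it had 3011 CPM of S-phase genes and 3035 CPM of G2/M genes, the lowest of the 61 cells for both, against medians of 9159 and 10417 CPM. Its formative and primed markers summed to 3712 CPM, against a median of 979, but with 12195 counts of Krt8 and 2617 of Krt18 the keratins held most of this, and Dnmt3b, Fgf5 and Otx2 had no count. Its mesendoderm markers summed to 1022 CPM (median 124), its trophectoderm markers to 322 (median 7.47), its general pluripotency genes to 1116 (median 2724) and its fibroblast markers to 57.6 CPM (median 0). The trophectoderm sum was mostly Cdx2 (652 counts), which is also in the mesendoderm list, and Tfap2c (625), while Gata3, Elf5 and Hand1 had no count. The fibroblast sum came from Pdgfrb alone (233 counts). Its naive pluripotency genes summed to 648 CPM, above the median of 404. Of these, Nanog had 1672 counts and Tfcp2l1 873, while Zfp42 and Esrrb had none. The part of these in the cyclin levels of the cell was not tested. Its total of 4009822 counts, its 7887 genes detected and its mitochondrial share of 2.33% were near the medians.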

How the data were processed

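RNA of single E14 cells was sequenced after G&T-seq separation and Nextera XT library preparation, per the labels' protocols. The authors deposited a table of raw counts per gene, as whole numbers, which was the basis of each value. The submitters' processing notes name the GRCm38 build and the tools DESeq2, bedtools 2.19.1, SAMtools 0.1.18 and GSNAP 2014-02-28. How reads were assigned to genes, with which annotation release and with or without strand, is not given in the sources used here. The deposited normalized table was not used.

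The table holds 36205 gene rows and 95 spike-in rows, which were left out of library sizes. Symbols were found for 34880 gene rows. Coordinates and exon lengths are from GENCODE M21 on GRCm38, and promoter windows from RefSeq (GRCm38.p6), which matched Ccnd3, Ccne1, Cdk4 and Cdk6. CPM used TMM factors of edgeR 4.0.16. CV2 ratios came from modelGeneCV2 of scran 1.30.0, whose p-values were not used, over the 10868 genes that reached 10 counts in 10 or more cells. The lowest cell had 2417702 counts, where 3 counts are 1.24 CPM. Scores were means of standardised log2(CPM + 1), scaled to an SD of 1. The procedures were tested on simulated data.

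The members and lists were chosen with earlier results of these data known. Named pathway genes were the 3 highest by median per kb in each list and all with a ratio of at least 2. Named markers were the most widely detected gene of each list and those with no count. Of the genes most like Cdk6, 1 is not reported here. Alternatives were other scalings (DESeq2 1.42.0 size factors, total counts), filters, trends, lengths, thinning, plate rows, correction for the share of genes detected, and leaving out extreme cells. As cells are not replicates of a condition, no test was made.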

Additional observations from a re-analysis of the deposited data

How the results depend on the processing

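No paired analysis was possible because the 61 cells form 1 group and nothing pairs them. Of the values that carry a call or a level, 134 were counted as unchanged under the alternatives run. Of these alternatives, leaving out the cell in G09 was chosen after seeing the data. The 134 include small shifts to below 0.3. Ccnd1 with Cdk6 (0.308) was 0.282 in plate rows E to H and 0.288 after correction for the share of genes detected. Ccne1 with the S-phase score (0.435) was 0.298 in rows A to D, where Ccne1 with Ccne2 (0.327) was 0.293. The CV2 ratio of Ccnd3 fell below 2 without its highest cell (1.71) and with a running median (1.23), and the cause was not tested. The rho of Ccne2 with the S-phase score moved to 0.16 in plate rows A to D and 0.555 in rows E to H, where fewer cells enter. No relation of at least 0.3 changed sign, but smaller ones did: in rows A to D Ccnd1 with Ccnd2 had −0.0466 (0.156 over all cells) and Ccne1 with the G2/M score −0.275 (0.016), and in rows E to H Cdk4 with the S-phase score had −0.101 (0.205) and Ccnd3 with the G2/M score −0.245 (0.0122). By the mean, the order of Ccnd2, Cdk6 and Ccnd3 changed to places 4, 5 and 6, which was also counted as unchanged. Other values, of single genes and pairs, kept their place in 203 cases and moved in 15. Scaling by spike-in totals was not run, because 8 cells had a spike-in count and the highest total was 4. After thinning to the lowest total, each member was found in as many cells as before. Thinning of reads does not cover transcripts missed before sequencing. The wells without a cell were not analysed here, so the meaning of 1 to 9 counts in a cell is not known.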
